A study of Homo sapiens with 6 samples.

Results

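The 429 nuclear tRNA genes that RefSeq places on chromosomes 1 to 22 and X of GRCh38.p14 were examined for MYC peaks, out of 58419 genes of all kinds on the same chromosome sequences. Members were taken by the biotype tRNA alone. Another 14 tRNA rows of the table lie on additional sequences of these chromosomes and 22 in the mitochondrial genome, and none of them was used. A gene was called bound in a library when any base of a deposited peak lay within 1000 bp of the gene. The study is a MYC chromatin immunoprecipitation sequencing (ChIP-seq) experiment in MIAPaCa2, an established line from a human pancreatic ductal adenocarcinoma. All cells spent 48 hours without serum. They then received for 3 hours either new serum-free DMEM (the DMEM group) or serum-free medium conditioned by primary cancer-associated fibroblasts (the CM group). Each group has 2 immunoprecipitated libraries with a peak list and 1 input, and the inputs were not analysed here. The labels do not say whether the libraries of a group came from separate cultures, so their spread may be technical.

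A tRNA carries an amino acid to the ribosome and reads a codon with its anticodon. Its gene is short and is transcribed by RNA polymerase III (Pol III). The promoter lies inside the gene, in the elements called box A and box B. TFIIIC binds these elements and brings in TFIIIB, which recruits the polymerase. MYC binds DNA with its partner MAX, most often at the E-box CACGTG. It is also known to bind TFIIIB and to raise transcription by Pol III in growing cells. A human cell holds many copies of most tRNA genes, often in clusters and often with identical mature sequences.

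The sequences of a few members are given first, because copies that cannot be told apart by their own letters were bound in some places and not in others. The RefSeq table of promoter windows (250 bases before to 50 after each gene start, GRCh38.p14) had 0 entries for tRNA genes. However, 27 of the 429 shared bases with the window of another gene, and 14 of those searched lay inside one whole. These 14 were read on the strand where the anticodon named in the symbol falls at positions 32 to 37. Box B, searched as GGTTCGA followed by any 2 bases and CC, was found in 9 of them. Box A, searched as T, any base, GC, any 2 bases, AG, any 2 bases and GG, was found in 2. In all 34943 windows of this length, on both strands, box B was found in 0.186% and box A in 5.44%. Below, capitals mark the anticodon and, where found, box B. The patterns shown do not overlap one another. The first pair are histidine tRNA genes, the second pair proline tRNA genes, and each pair is identical at 72 of 72 positions.
TRH-GTG1-3: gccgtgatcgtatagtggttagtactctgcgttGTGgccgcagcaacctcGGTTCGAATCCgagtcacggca
TRH-GTG1-9: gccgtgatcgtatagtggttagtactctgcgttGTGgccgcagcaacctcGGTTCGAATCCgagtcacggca
TRP-TGG3-2: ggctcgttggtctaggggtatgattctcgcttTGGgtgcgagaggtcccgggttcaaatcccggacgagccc
TRP-TGG3-5: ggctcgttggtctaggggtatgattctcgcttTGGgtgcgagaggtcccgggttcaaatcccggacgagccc
TRG-CCC2-2: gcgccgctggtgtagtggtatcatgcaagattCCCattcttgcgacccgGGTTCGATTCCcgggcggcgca

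TRH-GTG1-3 (chr1:148281365-148281436, plus strand) had peaks in CM libraries 1 and 2 and DMEM library 2. Its identical copy TRH-GTG1-9 (chr15:45201151-45201222, plus strand) had no peak within 1000 bp in any library. TRP-TGG3-2 (chr14:20684016-20684087, plus strand) was bound in CM library 1 and DMEM library 1, and TRP-TGG3-5 (chr16:3188094-3188165, plus strand) in none. TRG-CCC2-2 (chr16:636736-636806, minus strand), a glycine tRNA gene 431 bp from an end of METTL26, was bound in all 4 libraries. Within each pair the gene's own letters were the same and the calls differed. No peak overlapped TRH-GTG1-3 itself: its peak in CM library 1 ended at 148280644, to the low-coordinate side of the gene.

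Peaks lay at 154 tRNA genes in CM library 1 and 127 in CM library 2, against 50 in DMEM library 1 and 82 in DMEM library 2. These are 35.9%, 29.6%, 11.7% and 19.1% of the 429 genes. Among 10090 other annotated genes of at most 500 bp, mostly pseudogenes, microRNA and snoRNA genes, the same rule called 4.3%, 3.51%, 1.77% and 2.2%. Among 39642 single ends of protein-coding genes it called 23.7%, 21.8%, 8.74% and 14.7%. The tRNA genes thus lay above the other short genes and somewhat above single coding ends in each library, with no test of the difference. The single ends pool both ends of every coding gene, so they give no rate for gene starts alone. Of 19821 protein-coding genes, 44.4%, 41.3%, 17% and 28.4% had a peak within 1000 bp of either end. That rule gives a coding gene more places for a peak, and by it the tRNA genes lay below coding genes in each library. The mean was 140.5 ± 19.1 genes in CM (SD, n = 2) and 66.0 ± 22.6 in DMEM (SD, n = 2), a ratio of 2.13. Both CM libraries exceeded both DMEM libraries. The exact two-sided permutation p over the 6 relabellings was 0.333, the smallest that 2 against 2 allow.

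The CM lists are longer, with 15304 and 12797 peaks against 4657 and 7652, and the order of the groups turned over when this was taken out. With each list limited to its 4657 highest-scoring peaks, 39 and 46 tRNA genes were bound in CM and 50 and 53 in DMEM (exact permutation p = 0.333). No share of other short genes or coding ends was computed for these limited lists. The changed order is therefore not shown to be particular to tRNA genes. The distinct peaks at tRNA genes numbered 132 and 109 in CM and 41 and 76 in DMEM, since a peak can lie near several genes. As a share of its list this was 0.863% in CM library 1, with a 95% Clopper-Pearson interval of 0.722% to 1.02%. The shares were 0.852% (0.700% to 1.03%) in CM library 2, 0.880% (0.633% to 1.19%) in DMEM library 1 and 0.993% (0.783% to 1.24%) in DMEM library 2. The intervals cover counting error only, and all 4 overlap. The files hold no read counts, so depth is unknown and every count is a count at the authors' threshold, not a level of binding.

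**Figure D1:**
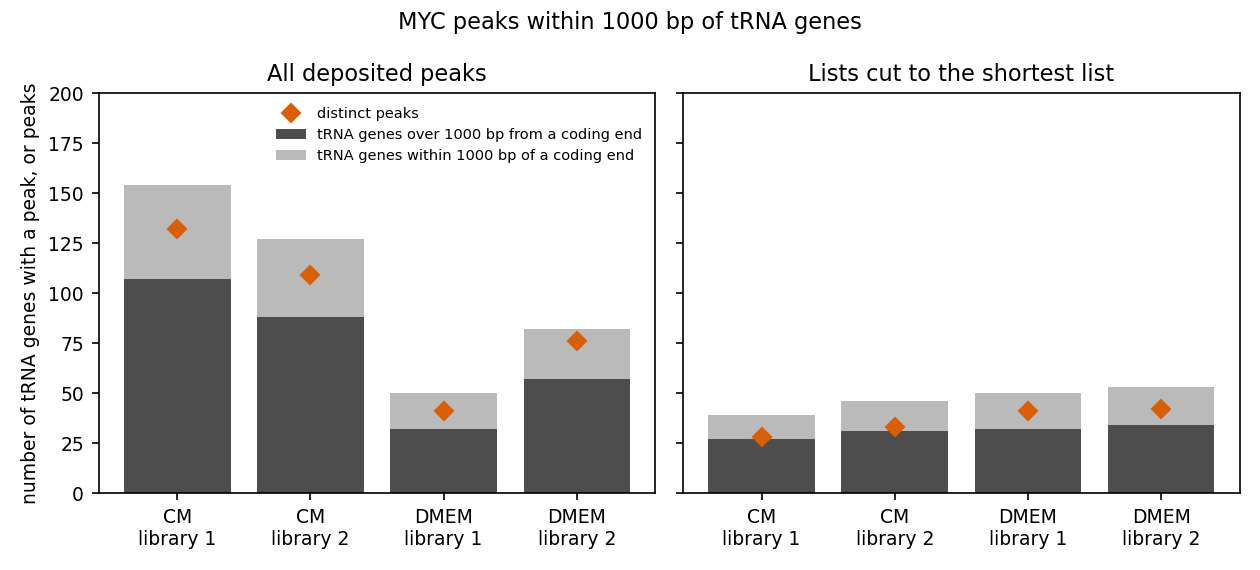
Number of tRNA genes with a MYC peak within 1000 bp (bars, split by distance to the nearest end of a protein-coding gene) and of distinct peaks at them (diamonds), in each of the 4 libraries. With all deposited peaks the CM bars reach 154 and 127 and the DMEM bars 50 and 82, while with lists of 4657 peaks each they reach 39 and 46 against 50 and 53.

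Every tRNA gene bound in a DMEM library was also bound in at least 1 CM library. Both CM libraries had a peak at 116 tRNA genes (27.0%, against 3.39% of other short genes and 20.8% of single coding ends). Both DMEM libraries had one at 45 (10.5%, against 1.44% and 8.22%), and all 4 libraries at 44 (10.3%, against 1.43% and 8.2%). Another 34 had peaks from both CM libraries plus 1 DMEM library, which was DMEM library 2 for 32 of them. Peaks in both CM libraries and no DMEM library, called CM-only here, were found at 38 genes (8.86%, against 1.0% and 6.04%). None was bound in both DMEM libraries and no CM library (0.0% of either background). The other 49 bound genes lacked a peak in 1 CM library, and 264 genes (61.5%) had no peak in any.

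Of the 38 CM-only genes, 34 lay at a merged peak interval of both CM libraries with no DMEM peak, 3 (TRS-TGA1-1, TRS-TGA3-1 and TRX-CAT1-3) had their CM peaks at separate places, and 1 lay near an interval that also held a DMEM peak. These counts rest on single libraries. Without CM library 2 the CM-only genes would be 67, and without DMEM library 2 they would be 70. Without DMEM library 1, 82 genes would be bound in DMEM and 76 in all remaining libraries. In lists of equal length 1 gene was CM-only and 5 were DMEM-only, with no background share computed for that setting. The limit of 1000 bp decided few genes: in any library at most 3 had their nearest peak in the last 100 bp inside it, and at most 3 in the first 100 bp outside. In CM library 2 the last gene inside was TRA-CGC1-1 at 993 bp and the first outside TRI-AAT5-2 at 1008 bp.

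Most tRNA genes lie apart from coding genes, and 374 of the 429 were over 1000 bp from both ends of every protein-coding gene. The last gene on the near side was TRX-CAT1-2 (992 bp from the histone gene H4C8, bound in 4 libraries) and the first beyond it TRL-CAA4-1 (1004 bp from PGBD2, bound in 3). Of these 374 distal genes, 107 and 88 were bound in the CM libraries and 32 and 57 in the DMEM libraries (28.6%, 23.5%, 8.56% and 15.2%). Other short genes equally far from coding ends, 9498 in all, were bound at 2.31%, 1.68%, 1.02% and 1.03%. Both CM libraries bound 78 (20.9%), both DMEM libraries 30 (8.02%), all 4 libraries 29 (7.75%), and 24 (6.42%) were CM-only. Of those other short genes, 1.62% were bound in both CM libraries, 0.737% in both DMEM libraries, 0.726% in all 4, and 0.442% were CM-only. Peaks within 1000 bp of a coding end are called peaks at coding ends here. With these left out, 66 distal genes remained bound in both CM libraries and 20 in all 4. Without DMEM library 1, 53 would be bound in all remaining libraries.

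Of the 55 tRNA genes near a coding end, 47 and 39 were bound in CM and 18 and 25 in DMEM (85.5%, 70.9%, 32.7% and 45.5%). Other short genes near a coding end, 592 in all, were also bound at higher shares than the distal ones, at 36.3%, 32.8%, 13.9% and 20.9%. Both CM libraries bound 38 of the 55 (69.1%, against 31.8%), both DMEM libraries and all 4 libraries 15 (27.3%, against 12.7%), and 14 were CM-only (9.97% of the other short genes). No test of these differences was made. The distances do not tell whether such a peak belongs to the coding gene or to the tRNA gene. Of 311 tRNA genes over 1000 bp from the end of any other annotated gene, both CM libraries bound 61 (19.6%) and all 4 bound 20 (6.43%). Distinct peaks at distal genes numbered 87 and 74 in CM and 23 and 51 in DMEM.

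The rule keeps peaks of bound genes close, so the distances are a description only. Between the midpoints of a bound distal gene and its highest-scoring peak the median distance was 344.5 and 390.8 bp in CM and 455.5 and 373.0 bp in DMEM. Overlap with the gene itself was counted for any peak, not only the highest-scoring one, from 1 shared base. It was found at 110 and 65 tRNA genes in CM and at 24 and 39 in DMEM, out of all 429. This is 25.6%, 15.2%, 5.59% and 9.09%, against 2.37%, 1.69%, 0.714% and 0.892% of the other short genes. By this stricter rule 58 tRNA genes were bound in both CM libraries (1.6% of other short genes), 15 in both DMEM libraries (0.525%) and 14 in all 4 (0.486%). CM-only genes numbered 22 (0.694%) and DMEM-only genes 0 (0.00991%). Median widths of peaks at distal genes were 616 and 427 bp in CM and 418 and 410 bp in DMEM, below the 691, 593, 430 and 431.5 bp of the whole lists.

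**Figure D2:**
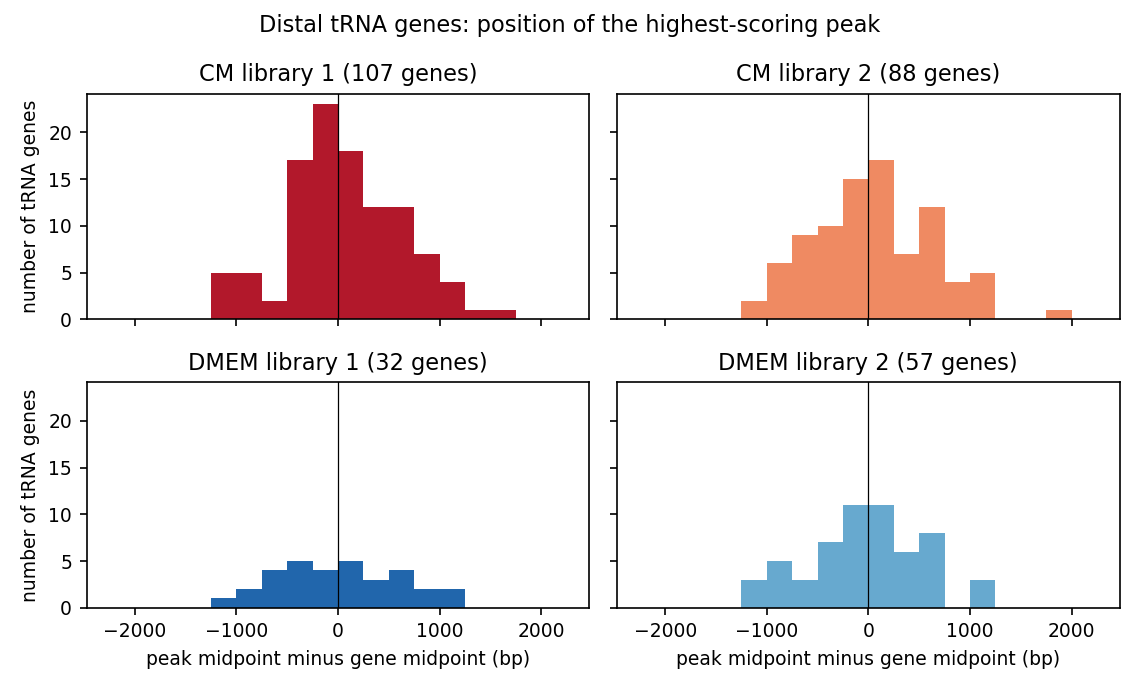
Distance from the midpoint of each bound distal tRNA gene to that of its highest-scoring peak, in bp along the chromosome and in bins of 250 bp, per library. The 107, 88, 32 and 57 genes spread to both sides of 0, with median absolute distances of 344.5, 390.8, 455.5 and 373.0 bp.

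By score, peaks at tRNA genes were ordinary members of their lists. The score is the authors' own value per peak and was ranked within each list only, so that 50 is the middle of a list. The median percentile of the distinct tRNA peaks was 45.2 and 39.5 in CM and 51.8 and 45.9 in DMEM. Percentiles of 90 or more were reached by 10 of 132, 8 of 109, 5 of 41 and 6 of 76 of them. Genes bound in all 4 libraries had a median mean CM percentile of 77.9, those with 1 DMEM library 52.7 and those that were CM-only 37.7. The highest CM-only value was 60.8.

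TRT-TGT2-1, a threonine tRNA gene on chromosome 1 (222465005 to 222465077), led the genes bound in all 4 libraries. Its peak stood at percentiles of 99.5 and 99.7 in CM and 96.7 and 96.7 in DMEM. In CM library 1 the peak spanned 222464652 to 222466830. The nearest coding end, that of HHIPL2, is 57187 bp away, and the nearest end of any other gene, a pseudogene, is 3021 bp away. The gene thus lay at one of the highest-ranking peaks of each list, far from any coding gene.

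Another 6 of the 12 leading genes are distal as well. TRV-AAC1-1 (valine) on chromosome 3 stood at 98.5 and 95.5 in CM and 94.5 and 87.9 in DMEM, with MYNN 1094 bp away. TRL-CAG1-7 (leucine) on chromosome 6 stood at 95.4, 95.8, 88.1 and 96.9 in the same order. It lies 10783 bp from a coding end and 416 bp from the lncRNA gene HCG11. TRP-CGG1-1 (proline) on chromosome 1 shared its peaks with TRP-AGG2-1 and stood at 94.7, 86.8, 74.6 and 90.2, with RCSD1 6029 bp away. TRQ-TTG1-1 (glutamine) on chromosome 17 stood at 88.8, 89.7, 79.2 and 85.6. It is 13635 bp from GNGT2, the nearest annotated end. TRM-CAT6-1 (elongator methionine) lies inside FBXO31 on chromosome 16 and stood at 80.0, 86.1, 72.5 and 83.7. It is 89 bp from an end of the lncRNA gene LOC124903747. TRV-TAC1-1 is described with its cluster below.

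The remaining 5 leading genes lie by a coding end. TRR-TCT1-1 (arginine) is inside BCAR3, 494 bp from its end, at percentiles of 94.6, 96.9, 92.1 and 97.5. TRE-CTC1-7 (glutamate) is 797 bp from NCOA7, at 95.4, 95.1, 86.0 and 95.2. TRR-ACG1-3 (arginine) is 325 bp from PRMT5, a protein arginine methyltransferase, at 94.2, 92.8, 94.9 and 85.2. TRR-ACG1-2 (arginine) is 796 bp from HMGN4, at 93.5, 94.6, 63.5 and 87.0. TRX-CAT1-1 (initiator methionine) is 257 bp from ILF2, at 86.8, 84.7, 49.9 and 87.0. Ranks in lists of different lengths are given side by side and show no change between libraries.

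**Figure D3:**
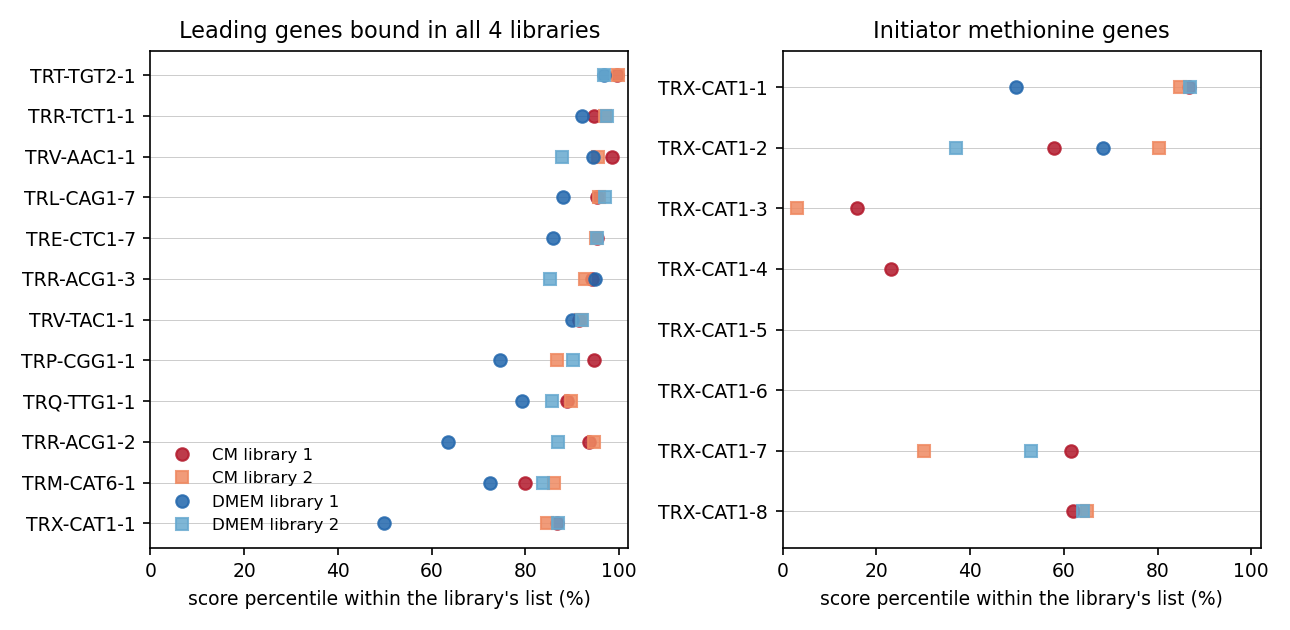
Score percentile of the highest-scoring peak within 1000 bp, per library, for the 12 leading tRNA genes bound in all 4 libraries (left) and for the 8 initiator methionine genes (right); a missing point means no peak. TRT-TGT2-1 lies at 96.7 or more in every library, and TRX-CAT1-5 and TRX-CAT1-6 have no point.

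The CM-only genes with the highest CM ranks came mostly in neighbouring pairs. TRG-TCC1-1 (glycine) and TRV-CAC3-1 (valine), 228 and 793 bp from DPP9, shared a peak at percentiles of 60.1 and 61.4. TRA-CGC3-1 (alanine) and TRG-GCC2-2 (glycine), inside GPD2, shared peaks at 44.5 and 67.5. TRP-AGG2-6 (proline) and TRT-TGT3-1 (threonine) on chromosome 14, both distal, shared peaks at 30.1 and 76.4. TRY-GTA2-1 (tyrosine), inside AGBL5, stood at 68.3 and 32.9. TRA-AGC8-2 (alanine), inside TRIM55, stood at 56.1 and 61.4, but these CM peaks overlap a peak of DMEM library 2 that lies 1098 bp from the gene. Its place is therefore not CM-only. The other 7 genes stood for 4 places without a DMEM peak, of which 3 are at a coding end.

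By position, tRNA genes joined while gaps were at most 100 kb gave 15 clusters of at least 5 genes holding 274 genes. Another 76 genes lay in 30 groups of 2 to 4, and 79 lay alone. Clusters are called by their chromosome, with a letter where it has several. Both CM libraries bound 55 of the 274 genes in clusters (20.1%), 29 of the 76 in small groups (38.2%) and 32 of the 79 alone (40.5%), with no test of these differences. All 55 were among the 206 genes of the 11 clusters with any bound gene (26.7%). Those clusters were kept for holding a bound gene, which by itself raises the share, so it cannot be set against the others. Among distal genes only, the shares were 17.4% of 259 in clusters and 29.6% of 54 alone. Binding differed widely from cluster to cluster, as the next paragraphs show.

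The chromosome 11 cluster (59550629 to 59566452) was bound throughout. All 8 genes had peaks in CM libraries 1 and 2 and DMEM library 2, and 5 of them in DMEM library 1. Its genes are all distal, the first of them TRV-TAC1-1, 23697 bp from OSBP. TRV-TAC1-1, TRV-TAC2-1, TRR-TCT3-2 and TRL-TAA3-1 shared their peaks. In CM library 1 that peak spanned 59549708 to 59552103. Percentiles were 91.5 and 91.9 in CM and 90 and 92 in DMEM. The same cluster also held a weakly ranked gene, TRF-GAA2-1, at 25.5 and 5.6 in CM, 8.7 in DMEM library 2 and no peak in DMEM library 1. The 8 genes are covered by 4 and 5 peaks in CM and by 2 and 4 in DMEM, so they are not 8 separate events. Peaks of both CM libraries overlapped 4 of the 8 genes themselves.

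On chromosome 17 (8119155 to 8227064), CM library 1 bound all 18 genes with 13 peaks, and CM library 2 bound 12 with 6 peaks. DMEM libraries 1 and 2 bound 8 and 10. Peaks of both CM libraries overlapped 4 of the 18 genes themselves. Of the 18, 7 lie within 1000 bp of a coding end. With peaks at coding ends left out, both CM libraries bound 4 of the 18 in place of 12, and lists of equal length also gave 4. The chromosome 11 cluster kept 8 of 8 in the first setting and 5 in the second. TRG-TCC3-1 led on chromosome 17, at 95.8 and 78.6 in CM. Its highest-scoring DMEM peaks, at 71.5 and 31.7, lie at another place on the opposite side of the gene. The merged intervals at both places held peaks of all 4 libraries, so only the highest-scoring peak differs. No peak overlaps the gene. On chromosome 12 (124921755 to 124940037) both CM libraries bound all 5 genes, led by TRD-GTC2-10 at 60.1 and 45.3. DMEM library 1 bound 1 of the 5 and DMEM library 2 bound 2.

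Other clusters were bound only in places. On chromosome 5 (181097070 to 181222467), the 8 genes from TRV-CAC1-2 to TRL-AAG1-3 had no peak in any library, and each of the other 9 had a peak in at least 1. TRT-TGT6-1, 132 bp from an end of the lncRNA gene TRIM7-AS2, led there, at 84.8 and 87.0 in CM and 12 and 61.1 in DMEM. On chromosome 1 (161399700 to 161612029), 7 and 9 of 32 genes were bound in CM and none in DMEM, led by TRG-TCC4-1 at 39.8 and 35.0. The 20 genes from TRG-GCC1-1 to TRL-CAG1-5 (161443304 to 161471205) had no peak, against 9 of the other 12 with one. These 20 carry only 5 different isodecoder numbers, which mark identical mature tRNAs. Reads from near-identical copies may not be placed on 1 of them, and how the authors treated such reads is not given in the sources used here. Both stretches were chosen after their values were seen.

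Chromosome 6 carries 6 clusters. Of the first (6a, 26286526 to 26331515), 8 and 6 of 13 genes were bound in CM and 1 in each DMEM library, led by TRX-CAT1-2. In the second (6b, 26521208 to 26828299), 3 of 31 were bound in all 4 libraries, led by TRL-CAG1-7. In the third (6c, 27020346 to 27335062), 2 of 21 were bound in both CM libraries. They included TRI-TAT2-2 (isoleucine), at 87.6 and 72.5 in CM, 54.0 in DMEM library 2 and no peak in DMEM library 1. TRI-TAT2-2 lies 40 bp from an end of the lncRNA gene LARRPM. In the fourth (6d, 27478812 to 27795932), 2 of 33 were bound in both CM libraries, led by TRV-AAC1-5 at 47.5 and 50.1. Of the first 4 clusters, 6a had the largest share bound in each CM library.

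No peak lay at any of the 43 genes of the fifth chromosome 6 cluster (6e, 28474552 to 28989083), the largest of all. No list held any peak inside its 514.5 kb. The sixth (6f, 57800211 to 57856473, 6 genes) and both chromosome 7 clusters (149310190 to 149415209 with 6 genes, 149546540 to 149707740 with 13 genes) had no bound gene either. Together 68 genes lay in these 4 clusters. On chromosome 14 (20609336 to 20684087), 7 and 3 of 14 genes were bound in CM, led by TRP-AGG2-6. On chromosome 16 (3150674 to 3192060) 4 and 2 of 14 were bound, led by TRP-TGG3-3 at 63.6 and 11.8.

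**Figure D4:**
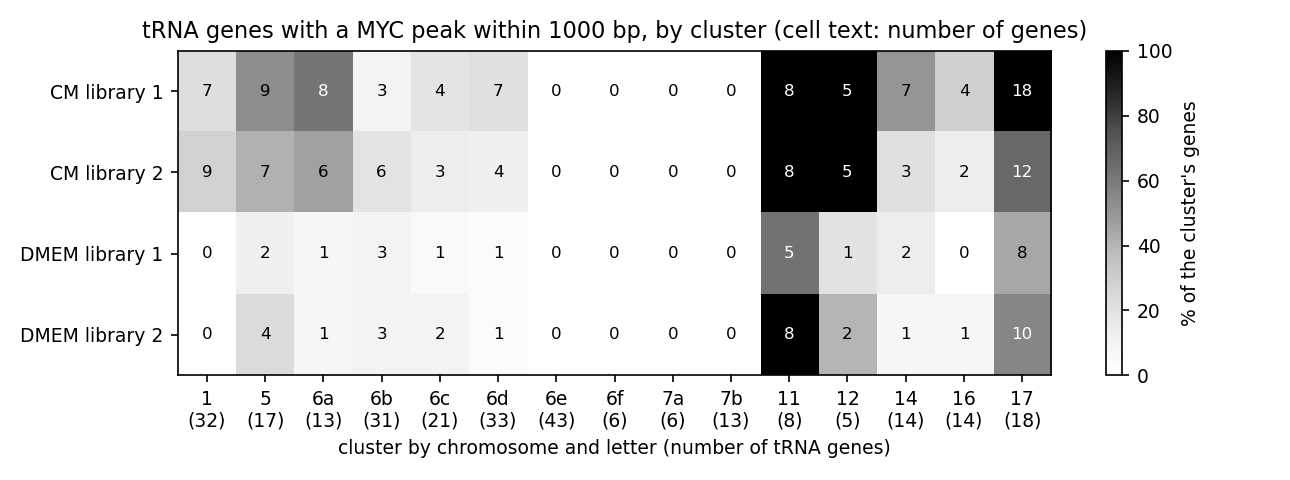
Bound genes in the 15 clusters of at least 5 tRNA genes (columns, with the number of genes in parentheses) in each library (rows); shading gives the share of the cluster's genes and the text in each cell their number. The clusters on chromosomes 11, 12 and 17 are dark in both CM libraries, and clusters 6e, 6f, 7a and 7b hold 0 in every row.

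Counts by amino acid ran from 1 of 29 cysteine genes to 14 of 26 arginine genes bound in both CM libraries, among amino acids with over 20 genes. Of 26 arginine genes, 16 and 15 were bound in CM and 9 and 13 in DMEM. Both CM libraries bound 14 (53.8%) and all 4 bound 9 (34.6%), against 27.0% and 10.3% of all tRNA genes. The 4 genes with the anticodon CCT were all bound in both CM libraries, 3 of them in all 4. With peaks at coding ends left out, both CM libraries bound 4 of the 26 (15.4%), against 67 of all 429 tRNA genes (15.6%). That setting removes peaks but keeps the genes near such ends in the totals. Of the 26, 8 lie within 1000 bp of such an end, and of the 429, 55 do. These shares therefore cannot be set against each other. Among distal genes, both CM libraries bound 7 of 18 arginine genes and 78 of all 374 (20.9%), with no test of the difference. Lists of equal length left 6 of the 26 arginine genes. Threonine (9 of 20, 45.0%), aspartate (6 of 13, 46.2%), proline (8 of 20, 40.0%) and tryptophan (3 of 7, 42.9%) also lay above the share of all tRNA genes. So did glutamate (6 of 15, 40.0%), valine (36.7%), phenylalanine (36.4%), histidine (33.3%), glycine (30.0%) and initiator methionine (62.5%). The remaining groups lay below it.

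Of 29 cysteine genes, TRC-GCA4-1 near LASP1 alone was bound, in all 4 libraries. Of these 29, 18 lie in the clusters without peaks. Alanine genes had 5 of 37 bound in both CM libraries (13.5%) and 0 in all 4, and 18 of the 37 lie in those clusters. Outside them, both CM libraries bound 26.3% of 19 alanine genes and 9.09% of 11 cysteine genes. Those clusters were set apart for having no peak, which by itself raises these shares. Asparagine genes, none of which is in those clusters, had 2 of 21 bound in both CM libraries (9.52%). Amino acid and cluster thus overlap, and their parts in these counts cannot be told apart.

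**Figure D5:**
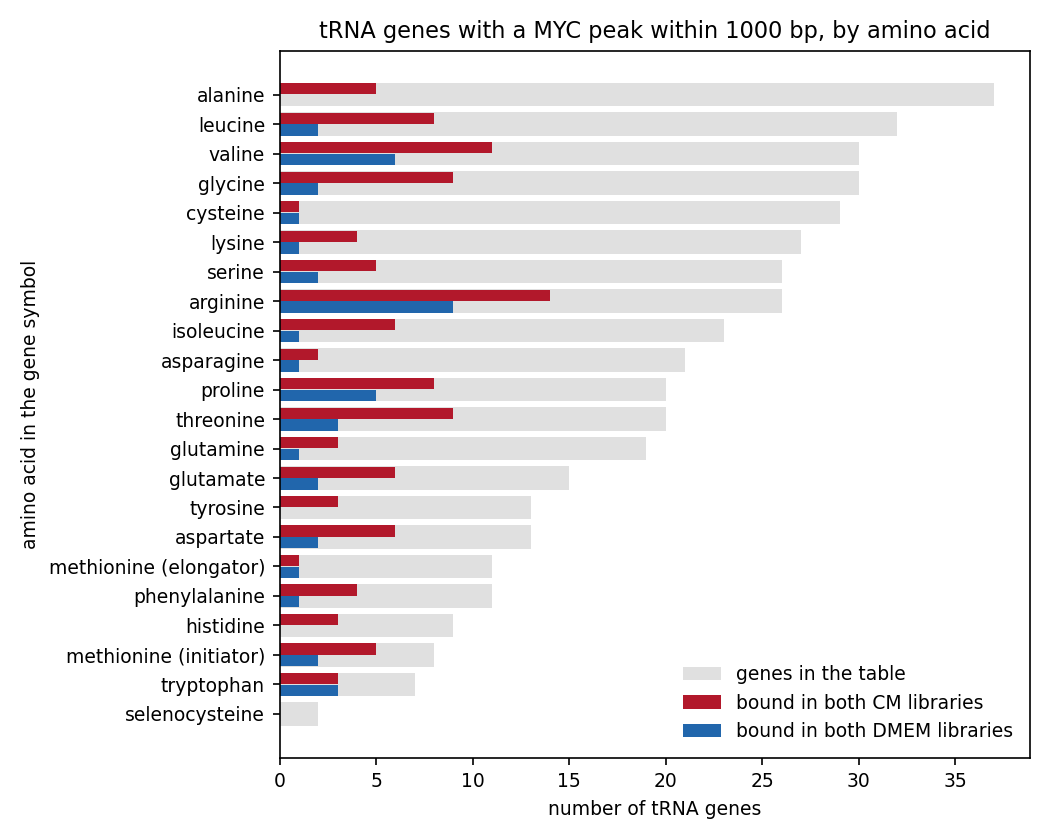
Number of tRNA genes by the amino acid in the symbol (grey bars), with those bound in both CM libraries (red) and in both DMEM libraries (blue). Arginine has 14 and 9 of 26, valine 11 and 6 of 30, cysteine 1 and 1 of 29, and selenocysteine 0 of 2.

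The initiator methionine tRNA starts every protein. Its 8 genes all have the symbol TRX-CAT1, and 6 and 5 of them were bound in CM and 2 and 4 in DMEM. Both CM libraries bound 5. That count was 3 with peaks at coding ends left out or with the window at 0 or 250 bp, and 1 in lists of equal length. TRX-CAT1-1 and TRX-CAT1-2 were bound in all 4 libraries, the second at 57.9 and 80.3 in CM and 68.4 and 36.9 in DMEM. TRX-CAT1-7 stood at 61.5 and 30.1 in CM and 53.1 in DMEM library 2. TRX-CAT1-8 stood at 62.0, 64.9 and 64.0 in the same libraries, and neither had a peak in DMEM library 1. TRX-CAT1-3 had a peak in each CM library, at 15.9 and 3.0, but at separate places on opposite sides of the gene. TRX-CAT1-4 had a peak in CM library 1 alone, at 23.1. TRX-CAT1-5 and TRX-CAT1-6 had none. Of 11 elongator methionine genes, TRM-CAT6-1 alone was bound in both CM libraries. Neither selenocysteine gene, TRU-TCA1-1 on chromosome 19 or TRU-TCA2-1 on chromosome 22, had a peak in any library.

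Copies of 1 mature tRNA often differed in this way. There were 57 isodecoder families with at least 2 copies, together 222 genes. In 23 of them some copies had peaks from both CM libraries and others had none in any. In 4 families every copy had peaks from both CM libraries, and in 19 no copy had a peak. TRV-AAC1 had 3 of 5 copies bound in all 4 libraries and the other 2 in none. TRG-GCC1 had 0 of 5. These families were chosen as examples after their values were seen.

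Counted as places instead of genes, the peaks of all libraries merged into 139 intervals at tRNA genes. Of these, 30 held peaks of all 4 libraries, 26 of both CM and 1 DMEM library, and 26 of both CM and no DMEM library. Another 49 came from 1 CM library alone. Another 7 joined CM library 1 with a DMEM library, and 1 interval on chromosome 16 had a DMEM peak and no CM peak. Of the 139, 53 lay at 2 or more tRNA genes, and the most genes at 1 interval was 4.

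Genes of the Pol III machinery, not chosen for tRNA genes alone, and of tRNA maturation were examined at their ends by peaks within 1000 bp. Of 19821 protein-coding genes, 44.4% and 41.3% were bound in the CM libraries and 17% and 28.4% in the DMEM libraries. Both CM libraries bound 39.5%, both DMEM libraries 16.1% and all 4 libraries 16.0%, and 11.1% were CM-only. Of 13 Pol III subunit genes, 12 were bound in both CM libraries. Of these, 9 were bound in all 4, among them POLR3A, POLR3D, CRCP and POLR1C, and POLR3F was CM-only. POLR3D stood at 99.4 and 99.6 in CM and 96.4 and 97.9 in DMEM. Of 17 initiation factor genes, 12 were bound in both CM libraries. All 4 libraries bound 6: TBP, GTF3A, GTF3C2, GTF3C4, GTF3C6 and SNAPC4. BRF2, GTF3C5 and SNAPC2 were CM-only. BRF1, BDP1 and GTF3C1 had no peak in any library. GTF3C4, a TFIIIC subunit, stood at 99.7, 99.9, 98.7 and 99.2. MAF1, a repressor of Pol III, had peaks from both CM libraries and 1 DMEM library.

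Of 20 genes of tRNA maturation and export, 14 were bound in both CM libraries. The 9 bound in all 4 were SSB, POP1, POP7, RPP38, RPP40, ELAC2, TRNT1, CLP1 and XPOT, and POP5, RPP14 and TSEN15 were CM-only. RPP40, a protein of the RNase P complex that trims the leader of tRNAs, stood at 98.8, 99.3, 94.0 and 99.4. Of 37 other RNA genes read by Pol III, 14 were bound in both CM libraries, where 3.39% of other short genes were. That background was 1.62% over 1000 bp from coding ends and 31.8% nearer, and the 37 genes were not split by this distance. RN7SL1, RMRP, RNU6-2 and RNY5 were bound in all 4, and RNU6-7, RNU6-8 and RNA5S17 were CM-only. No peak was found at 22, among them the neighbouring genes RNA5S1 to RNA5S16.

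A tRNA gene and a Pol III subunit gene share a bound place on chromosome 16. TRL-AAG2-4 (leucine, 22297140 to 22297221) lies 188 bp from the start of POLR3E. The peak spanned 22296551 to 22298523 in CM library 1, 22296965 to 22298296 in CM library 2 and 22297236 to 22297788 in DMEM library 2, at percentiles of 85.2, 78.0 and 82.9. DMEM library 1 had no peak there. The promoter window of POLR3E (chr16:22297159-22297458, plus strand, RefSeq, GRCh38.p14) is shown because it holds both elements. Its first 63 bases are the end of the tRNA gene. The first capitals mark that gene's box B, found at 22297200 to 22297210, and the second the E-box CACGTG at 22297408 to 22297413. The E-box, a palindrome and the same on both strands, was found in 7.23% of all 34943 windows.
POLR3E: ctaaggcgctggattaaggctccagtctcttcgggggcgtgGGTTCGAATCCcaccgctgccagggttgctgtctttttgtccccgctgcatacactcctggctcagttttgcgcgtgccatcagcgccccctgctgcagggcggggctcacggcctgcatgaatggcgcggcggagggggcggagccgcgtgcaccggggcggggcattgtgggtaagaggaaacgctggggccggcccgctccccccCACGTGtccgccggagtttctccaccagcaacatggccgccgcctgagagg
The match is a description of the letters and not a measured site. The CM peaks cover both elements, and the peak of DMEM library 2 begins beyond the tRNA gene and covers the E-box.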

How the data were processed

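Peaks per library were made by the authors and deposited with a whole-number score per peak, of at least 13 in 3 lists and 14 in the other. MACS2 2.1.1.20160309, Bowtie2 2.3.4, Trim Galore 0.4.3, Picard 2.9.0, SAMtools 1.3.1 and the build GRCh38 are named in the submitters' processing notes. Not given in the sources used here are settings, the use of inputs and the handling of reads that fit several places. Coordinates are 1-based. Genes came from RefSeq GRCh38.p14, as a table without strand. Rows whose coordinates restart after a chromosome's own run were treated as other sequences. Bound means a peak within 1000 bp. Pathway genes longer than a tRNA gene were tested at either end. No count model was possible, since the lists hold no reads. Single values were compared by exact permutation over the 4 libraries (Python 3.11.15). The code of the calling step was checked on simulated data with 200 planted peaks. For all 429 genes it gave the same number of peaks within 1000 bp as a direct comparison of positions. The members and lists were chosen with earlier results of these data known. Named genes are up to 12 bound in all 4 libraries (by mean percentile, 1 per peak set), 8 CM-only, 5 DMEM-only and 10 distal genes, the leading gene of each cluster, all initiator and selenocysteine genes, and the pathway genes bound in all 4 libraries or CM-only. Some genes under this rule are not reported here.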

Additional observations from a re-analysis of the deposited data

How the results depend on the processing

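Of 205 recomputed values, 2 changed sign, and other large moves in the main counts follow. In lists of equal length, the difference of CM and DMEM means became -9 bound tRNA genes and -11 distinct peaks, against 74.5 and 62. That setting also gave 34 genes in both CM libraries, 23 in all 4, 1 CM-only and 5 DMEM-only, with 24 and 16 distal genes in both CM and in all 4. Peaks overlapping the gene gave 58 genes in both CM libraries, 15 in both DMEM, 14 in all 4 and 22 CM-only, with 40 and 8 distal ones. Distal genes in all 4 were 19 within 250 bp and 17 at over 5000 bp from coding ends. Without peaks at coding ends the counts were 67 (both CM), 27 (both DMEM), 20 (all 4), 24 (CM-only) and 3 (DMEM-only). The authors' common lists gave 73 CM-only genes. There the term means a peak in the common CM list and none in the common DMEM list. A gene with a peak in 1 DMEM library can thus count, unlike in the main rule. Windows of 500 and 2500 bp, a score of at least 50 and peak midpoints gave no such large move in these counts. Leaving out each library gave differences of 58.5 to 90.5 genes and 44.5 to 79.5 peaks. With a peak asked for in every remaining library, there were 116 to 154 genes in CM, 45 to 82 in DMEM and 44 to 76 in both groups. Distal genes numbered 78 to 107 in CM and 29 to 53 in both groups. CM-only genes numbered 40 to 70 and DMEM-only genes 0 to 1. Fewer libraries are asked for than in the main rule, so these counts can only stay or rise. The cause was not tested. Replicate numbers in the labels name libraries and are not said to pair them. With the replicate block (sign flips within numbers), the differences of 74.5 genes and 62 peaks had an exact p of 0.5, the smallest it allows. Joining genes at gaps of 20 kb gave 7 clusters without peaks in place of 4, and gaps of 500 kb left 31 genes in such clusters in place of 68.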
